A study of Mus musculus with 5 samples.

Results

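The 36 genes described here encode ATP-dependent chromatin remodellers and their subunits, taken from a fixed list of 25 BAF, 2 ISWI, 6 CHD and 3 INO80 class genes. All 36 matched the RefSeq GRCm38 gene table, which held 21521 protein-coding genes on the chromosomes used. EBF1 sites came from ChIP-seq of pro-B cells with an antibody against EBF1. The cells were Ebf1-/- fetal liver cells, which lack the endogenous factor, transduced with wild-type EBF1 (genotype label EBF1 wt). They formed 1 library of 5 in the series, and no other library was analysed here, so no value below has a replicate and none compares 2 genotypes. The site list held 7494 sites, each 300 bp wide, with no score and no read depth. Each site carried 1 of 3 class names given by the authors, CTD-ind, YmA-ind or YmA-dep, which serve here as labels only, since their definition was not among the descriptions used. YmA is the name of an EBF1 form in the series. RNA was not measured in these libraries, so whether a gene with a site was expressed is not known. The label was checked by sites alone. The pro-B genes Cd79a, Cd79b, Igll1, Vpreb1, Pax5 and Blnk each had an assigned site. Of genes of other lineages 0 of 6 did, against 19.6% of all protein-coding genes. So few genes cannot set 0 of 6 apart from that share, and the check is weak.

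Chromatin remodellers use ATP hydrolysis to slide, evict or exchange nucleosomes, and each class is built around an ATPase of its own. BAF complexes, the mammalian SWI/SNF type, contain BRG1 (the product of Smarca4) or BRM (Smarca2), open chromatin at enhancers and promoters, and occur as canonical BAF, PBAF and non-canonical BAF, which differ in accessory subunits. ISWI remodellers space nucleosomes, CHD remodellers read modified histone tails and include the ATPases of the NuRD complex, and the INO80 class handles the histone variant H2A.Z. EBF1 is a transcription factor that specifies the B lineage and can bind closed chromatin. BRG1 was the other protein precipitated in the series.

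Of the 36 remodeller genes, 13 carried at least 1 assigned EBF1 site, 36.1% (exact 95% interval 20.8 to 53.8%), against 19.6% of all protein-coding genes. Assignment went by the centre of a site, first to the protein-coding gene around it (the shortest where genes overlap) and otherwise to the nearest one within 100 kb. These 13 genes held 30 sites, a mean of 0.833 per remodeller gene against 0.329 per protein-coding gene, and the median was 0 in both. When a site counted for each gene that held it or lay within 10 kb, 16 of 36 genes had one, 44.4% (27.9 to 61.9%), against 22.3% of all protein-coding genes. Intervals cover counting error in this list only. No test was made, since the genes were chosen with earlier results of these data known.

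**Figure D1:**
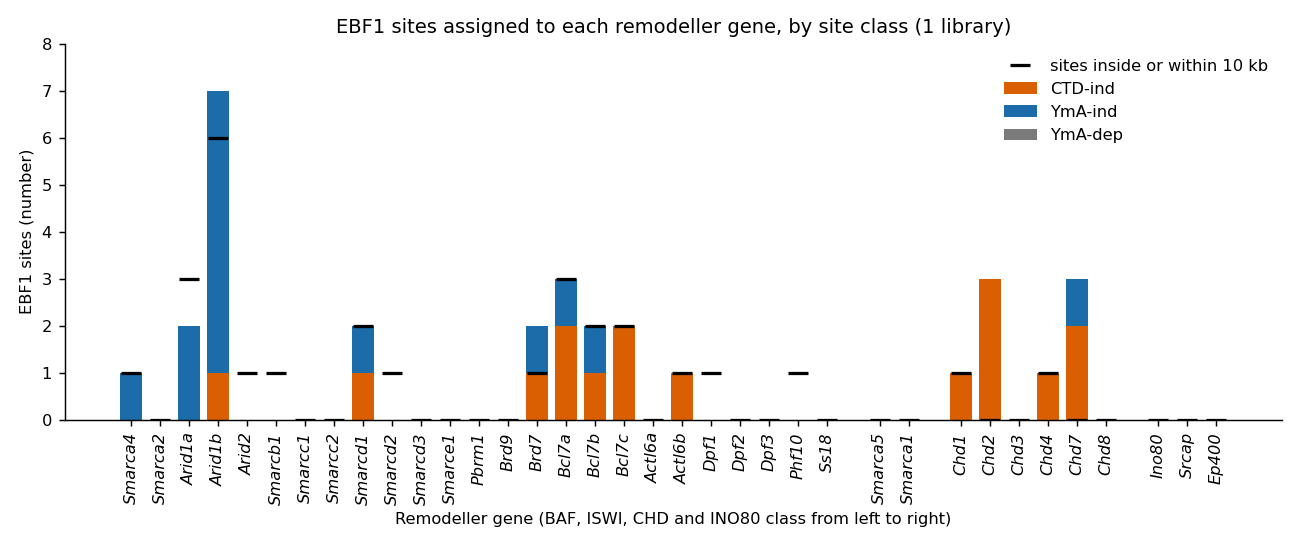
Number of EBF1 sites (vertical axis) assigned to each of the 36 remodeller genes (horizontal axis), stacked by site class, with a black dash for the number inside the gene or within 10 kb. Arid1b stands highest with 7 sites, no bar holds a YmA-dep site, and the ISWI and INO80 class genes are at 0.

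Over all protein-coding genes, the share with a site grew with the span of the gene, and the remodeller genes are long. Their median span was 43.4 kb, against 17.4 kb over all protein-coding genes. Among genes of 10 to 30 kb, 4 of 12 remodeller genes had an assigned site, against 20.0% of all genes of that span. At 30 to 100 kb the count was 6 of 13, against 26.6%. At 100 kb or more it was 3 of 10, against 35.1%, so the longest remodeller genes were not above the background. The 1 remodeller gene under 10 kb, Smarcd2, had none, against 9.70%. By the 10 kb count, the shares were 7 of 12 (background 23.1%), 6 of 13 (28.0%) and 2 of 10 (34.1%), and Smarcd2 had a site (14.1%). The interval of the remodeller share contained the background in each span bin under the 100 kb assignment. Under the 10 kb count it did so in the bins of 30 to 100 kb, of 100 kb or more and of under 10 kb, while at 10 to 30 kb its lower bound was 27.7%. Inside gene spans, remodeller genes held 0.659 sites per 100 kb and all protein-coding genes 0.403. Without Arid1b the remodeller value was 0.494.

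**Figure D2:**
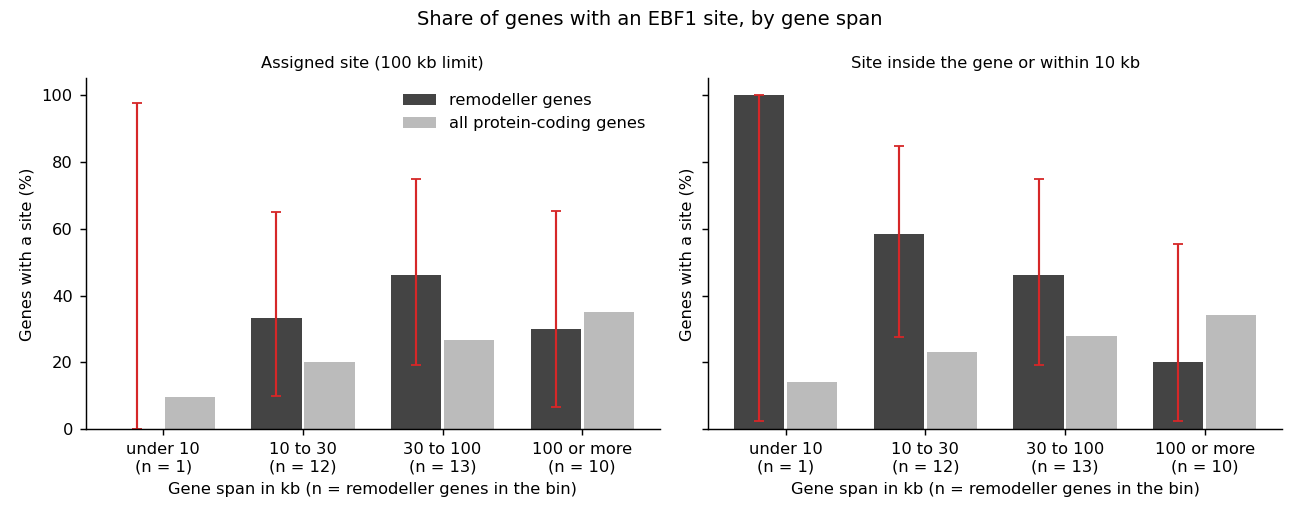
Percent of genes with an EBF1 site (vertical axis) in 4 bins of gene span (horizontal axis), for remodeller genes (dark, with exact 95% intervals) and all protein-coding genes (light), by the 100 kb assignment (left) and the 10 kb count (right). The dark bars stand above the light ones from 10 to 100 kb and below them at 100 kb or more.

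Promoter sequence is shown for the remodeller genes whose start lay at or just beside a site. RefSeq promoter windows of build GRCm38.p6, from 250 bases before to 50 after an annotated start, were found for 28 of the 36 genes (31 windows). A site overlapped 2 of these windows, at Bcl7b and Arid1a, while 2.07% of all 32851 windows overlapped one. At Smarcd1, Chd4 and Bcl7c a site lay inside the gene just past the window, and these 3 were added after their distances were seen. No window was in the table for Chd1, Chd2, Chd3, Chd7, Smarce1, Arid2, Ss18 and Bcl7a. The 5 windows are printed in the direction of transcription, with capitals where the core of the EBF recognition sequence, CCCNNGGG, was found. This core is its own reverse complement, so 1 search covers both strands, and matches may overlap.
Bcl7b: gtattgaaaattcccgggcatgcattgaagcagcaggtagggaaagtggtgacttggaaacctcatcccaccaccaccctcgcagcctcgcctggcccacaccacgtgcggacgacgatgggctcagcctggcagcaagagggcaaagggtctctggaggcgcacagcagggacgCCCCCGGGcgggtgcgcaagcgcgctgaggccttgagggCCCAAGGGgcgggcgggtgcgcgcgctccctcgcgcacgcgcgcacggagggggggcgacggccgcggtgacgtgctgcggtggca
Arid1a: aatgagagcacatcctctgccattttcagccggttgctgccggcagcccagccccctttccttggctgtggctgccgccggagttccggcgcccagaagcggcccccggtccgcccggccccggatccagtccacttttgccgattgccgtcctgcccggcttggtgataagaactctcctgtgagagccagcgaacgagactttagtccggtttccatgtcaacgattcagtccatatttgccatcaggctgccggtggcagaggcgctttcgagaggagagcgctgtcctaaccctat
Bcl7c: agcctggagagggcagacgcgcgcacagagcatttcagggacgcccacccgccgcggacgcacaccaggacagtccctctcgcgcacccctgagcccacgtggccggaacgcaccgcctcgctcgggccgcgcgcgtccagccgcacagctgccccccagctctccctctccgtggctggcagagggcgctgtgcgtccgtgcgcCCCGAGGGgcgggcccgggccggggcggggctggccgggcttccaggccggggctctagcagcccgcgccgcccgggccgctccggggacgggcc
Chd4: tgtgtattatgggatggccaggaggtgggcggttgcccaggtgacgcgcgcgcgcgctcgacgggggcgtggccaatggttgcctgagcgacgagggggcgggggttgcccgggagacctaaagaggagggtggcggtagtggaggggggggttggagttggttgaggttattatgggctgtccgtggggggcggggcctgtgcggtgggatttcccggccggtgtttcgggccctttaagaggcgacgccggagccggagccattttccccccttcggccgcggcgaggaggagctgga
Smarcd1: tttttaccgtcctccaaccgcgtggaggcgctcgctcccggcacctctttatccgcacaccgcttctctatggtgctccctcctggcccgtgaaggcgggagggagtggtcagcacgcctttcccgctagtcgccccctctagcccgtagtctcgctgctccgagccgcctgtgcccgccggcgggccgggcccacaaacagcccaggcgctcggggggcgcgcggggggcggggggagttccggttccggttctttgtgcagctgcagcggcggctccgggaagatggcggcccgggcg
The Bcl7b window (chr5:135168122-135168421, plus strand) shared its bases 83 to 300 with a CTD-ind site, and both of its core matches, at bases 176 and 215, lay in the shared part. The Arid1a window (chr4:133756720-133757019, minus strand) shared only its last 38 bases with a YmA-ind site and held no core. The Bcl7c window (chr7:127708717-127709016, minus strand) had 1 core at base 206, with 308 bases between the window and the nearer CTD-ind site. The Smarcd1 window (chr15:99702037-99702336, plus strand) had none, and 107 bases separated it from its CTD-ind site. The Chd4 window (chr6:125095913-125096212, plus strand), that of the nearer of its 2 annotated starts, also had none, with 283 bases between it and a CTD-ind site. At Brd7 370 bases lay between the window and a YmA-ind site on its upstream side.

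Among all remodeller promoters, the core was found in 5 of 31 windows (16.1%, 5.45 to 33.7%), those of Bcl7b, Bcl7c, Dpf1, Phf10 and the second annotated start of Arid1a, against 13.7% of all windows, a value inside that interval. Of all windows that overlapped a CTD-ind site, 51.2% held it, and of those that overlapped a YmA-ind site, 33.9%. The median GC content was 68.3% in remodeller windows, 52.7% in all windows, 64.2% in windows with a CTD-ind site and 57% in those with a YmA-ind site, and the part of base composition in these shares was not tested. A match describes letters in the reference and is not itself a bound site.

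The 30 sites at remodeller genes belonged to the CTD-ind and YmA-ind classes. CTD-ind sites numbered 16 (53.3%, 34.3 to 71.7%), against 35.1% of all 7082 assigned sites. YmA-ind sites numbered 14 (46.7%, 28.3 to 65.7%), against 53.6%. YmA-dep sites numbered 0 of 30 (exact 95% interval up to 11.6%), against 11.2% of assigned sites. Each of these 3 intervals contained the share over all assigned sites. The larger class depended on the distance limit: within 10 kb the sites were 9 CTD-ind (40.9%, against 36.5% of all sites so assigned) and 13 YmA-ind (59.1%, against 52.7%). With noncoding genes also taking sites, they were 7 CTD-ind (36.8%, against 35.5%) and 12 YmA-ind (63.2%, against 53.4%). By genes, 11 of 36 had a CTD-ind site (30.6%, 16.3 to 48.1%, background 9.32%). YmA-ind sites occurred at 8 (22.2%, 10.1 to 39.2%, background 12.2%) and YmA-dep sites at 0 (interval up to 9.74%, background 3.26%). Only the CTD-ind interval left out its background, and these shares were not matched for gene span. The CTD-ind sites of Chd2, Chd7, Arid1b and Brd7 all lay beyond 10 kb. Both classes occurred at 6 genes, CTD-ind alone at 5 and YmA-ind alone at 2. Sites of 1 gene can share a local stretch of chromatin, so the intervals for sites are too narrow if neighbouring sites are not independent. Of the 17 pairs of neighbouring sites at 1 gene, 6 were centred under 5 kb apart.

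**Figure D3:**
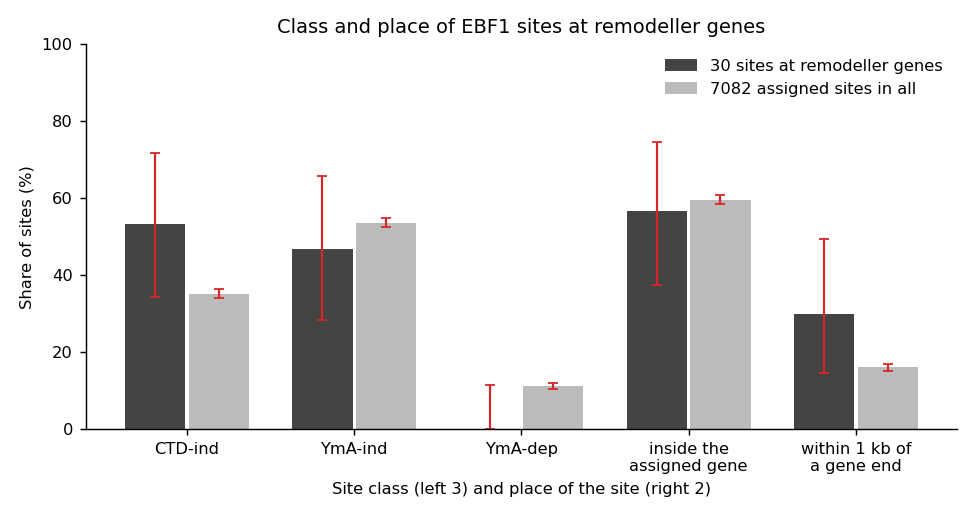
Percent of sites (vertical axis) in each class, inside the assigned gene and within 1 kb of an end of that gene (horizontal axis), for the 30 sites at remodeller genes (dark) and the 7082 assigned sites (light), with exact 95% intervals. YmA-dep is at 0 for remodeller genes, and the other dark intervals are wide.

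By place, 17 of the 30 sites (56.7%, 37.4 to 74.5%) lay inside the assigned gene, against 59.6% of all assigned sites. Another 5 lay outside within 10 kb and 8 lay farther out. Within 1 kb of an end of the gene lay 9 sites (30%, 14.7 to 49.4%), against 16.1%. Of these, 6 were CTD-ind and 3 YmA-ind. Among CTD-ind sites, 37.5% (6 of 16) were near an end, against 29% of all assigned CTD-ind sites, and among YmA-ind sites 21.4% (3 of 14), against 10.1%. Both intervals at remodeller genes contained the value over all sites.

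**Figure D4:**
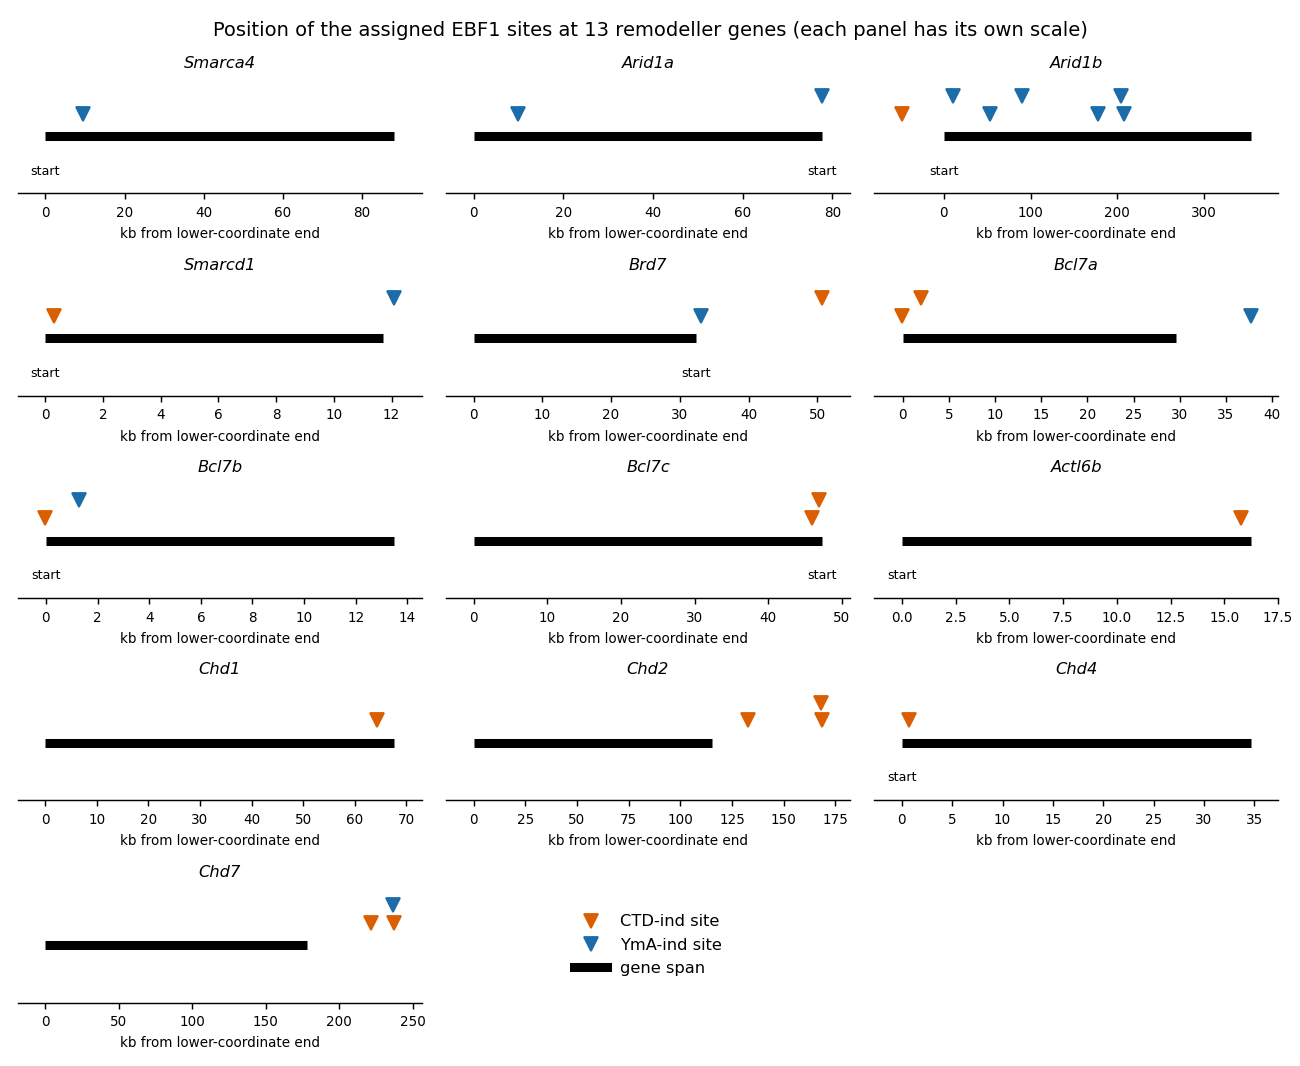
Assigned EBF1 sites (triangles, coloured by class) along the span of each of the 13 remodeller genes (black bar), in kb from the end with the lower coordinate, with the annotated start marked where the promoter table gives one. Triangles are set at 2 heights only to keep neighbours apart. Sites gather at 1 end of Bcl7b and Bcl7c, spread through Arid1b, and lie wholly outside Chd2 and Chd7.

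An EBF1 site was assigned to 9 of the 25 BAF genes (36%, 18 to 57.5%), against 19.6% of all protein-coding genes, a value inside that interval. These 9 genes held 22 sites, 9 CTD-ind and 13 YmA-ind. By the 10 kb count 14 BAF genes (56%) had a site, against 22.3%. The ATPase genes of the BAF class differed. Smarca4, which encodes BRG1, spans 88.1 kb on chromosome 9 and held 1 YmA-ind site (chr9:21625407-21625706), 9.39 kb downstream of its annotated start. No other protein-coding gene lay within 10 kb of that site. Smarca2, which encodes the alternative ATPase BRM, had none, and the nearest site on chromosome 19 was 531 kb away, the farthest of all 36 genes.

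The largest subunits of canonical BAF are encoded by Arid1a and Arid1b, a pair of paralogs of which a complex holds 1. Arid1b had the most sites of all remodeller genes, 7, over a span of 353 kb on chromosome 17. It was the only remodeller gene with 5 or more sites, a number reached by 187 protein-coding genes, and 57 protein-coding genes had 7 or more. Of these, 6 sites, all YmA-ind, lay inside the gene at 9.79, 52.5, 89.4, 178, 203 and 207 kb from its annotated start. The last 146 kb of the gene, beyond the site at chr17:5201949-5202248, held none. The other, CTD-ind (chr17:4946083-4946382), lay 48.1 kb outside, within the span of a long noncoding RNA gene.

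Arid1a, with a span of 77.8 kb on chromosome 4, had 2 YmA-ind sites. One (chr4:133756458-133756757) was centred 0.162 kb inside the annotated start and is the site that touches the printed promoter window. The other (chr4:133688722-133689021) lay 9.86 kb from the far end, 65.1 kb downstream of the second annotated start, and 67.7 kb from the first site. A CTD-ind site within 10 kb, 6.67 kb past that end, was assigned to Pigv, which holds it. Of the 15 sites inside BAF genes, Arid1a and Arid1b thus held 8, all YmA-ind.

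The double PHD finger genes Dpf1, Dpf2 and Dpf3, also canonical BAF subunits, had no assigned site. At Dpf1 a YmA-ind site lay 1.72 kb outside the gene but 1064.5 bp from Sipa1l3, to which it was assigned. The nearest sites to Dpf2 and Dpf3 were 136 and 153 kb away, although Dpf3 spans 274 kb.

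All 3 genes of the BCL7 family, small proteins bound to the ATPase module of BAF, carried sites, 7 in all. Bcl7a had 3: a CTD-ind site centred 74.5 bp outside its lower-coordinate end (chr5:123344224-123344523), another CTD-ind site 1.94 kb inside (chr5:123346234-123346533), and a YmA-ind site 8.02 kb past the other end. Bcl7b had a CTD-ind site centred 18.5 bp before its annotated start (chr5:135168204-135168503), over the printed window, and a YmA-ind site 1.29 kb after it (chr5:135169516-135169815). Bcl7c had 2 CTD-ind sites, 0.507 and 1.33 kb inside its annotated start (chr7:127708109-127708408 and chr7:127707291-127707590). Thus each family member had a pair of sites within 2.01 kb of each other at 1 end of the gene, and 5 of these 6 sites were CTD-ind. Tbl2 lay within 10 kb of the Bcl7b sites and Ctf1 within 10 kb of those at Bcl7c.

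Of the other ATPase module genes, Actl6b had a CTD-ind site (chr5:137568971-137569270) at the end far from its start, 0.462 kb inside the gene, with Tfr2 within 10 kb. Actl6b encodes the actin-like subunit of neuronal BAF. Its paralog Actl6a, which encodes the subunit used in dividing cells, had none, and the nearest site was 52.3 kb away. Ss18 had none within 209 kb.

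Among the 7 core subunit genes, 1 carried assigned sites (14.3%, 0.361 to 57.9%), against 19.6% of all protein-coding genes. By the 10 kb count 3 of the 7 had a site (42.9%, against 22.3%). Smarcd1, which encodes BAF60A and spans 11.7 kb on chromosome 15, had a CTD-ind site 0.306 kb inside its start (chr15:99702444-99702743) and a YmA-ind site 0.378 kb past its other end (chr15:99714223-99714522). The start site also lay in the span of a long noncoding RNA gene, and Asic1 and Gpd1 were within 10 kb of 1 site each. Its paralog Smarcd2 had a CTD-ind site centred 155.5 bp outside the gene (chr11:106273004-106273303), assigned to Tcam1, which holds it. The annotated start in the promoter table lay farther inside the gene. Smarcd3 had none within 15.7 kb. At Smarcb1, another of the core subunit genes, a YmA-dep site lay 9.66 kb outside (chr10:75886960-75887259) but nearer to Derl3. It was the 1 YmA-dep site inside or within 10 kb of a remodeller gene. Smarcc1, Smarcc2 and Smarce1 had no site within 10 kb, and their nearest lay at 109, 11.9 and 31.5 kb, the last of them YmA-dep.

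Of the 4 PBAF genes 1 had assigned sites (25%, 0.631 to 80.6%), against 19.6% of all protein-coding genes, and the 1 non-canonical BAF gene had none. By the 10 kb count 3 of the 4 PBAF genes had a site (75%, against 22.3%). Brd7, a bromodomain subunit of PBAF, had a YmA-ind site 0.691 kb outside the gene on the side of its start (chr8:88362793-88363092) and a CTD-ind site 18.4 kb outside on the same side. Arid2, Pbrm1 and Phf10, the other PBAF genes, had no assigned site. CTD-ind sites lay 1.96 kb outside Arid2, in a predicted coding gene, and 1.83 kb outside Phf10, in Wdr27, with the annotated start of Phf10 18.1 kb away. Pbrm1 had its nearest site at 22.6 kb. Brd9, the bromodomain subunit of non-canonical BAF, had its nearest at 15.1 kb.

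**Figure D5:**
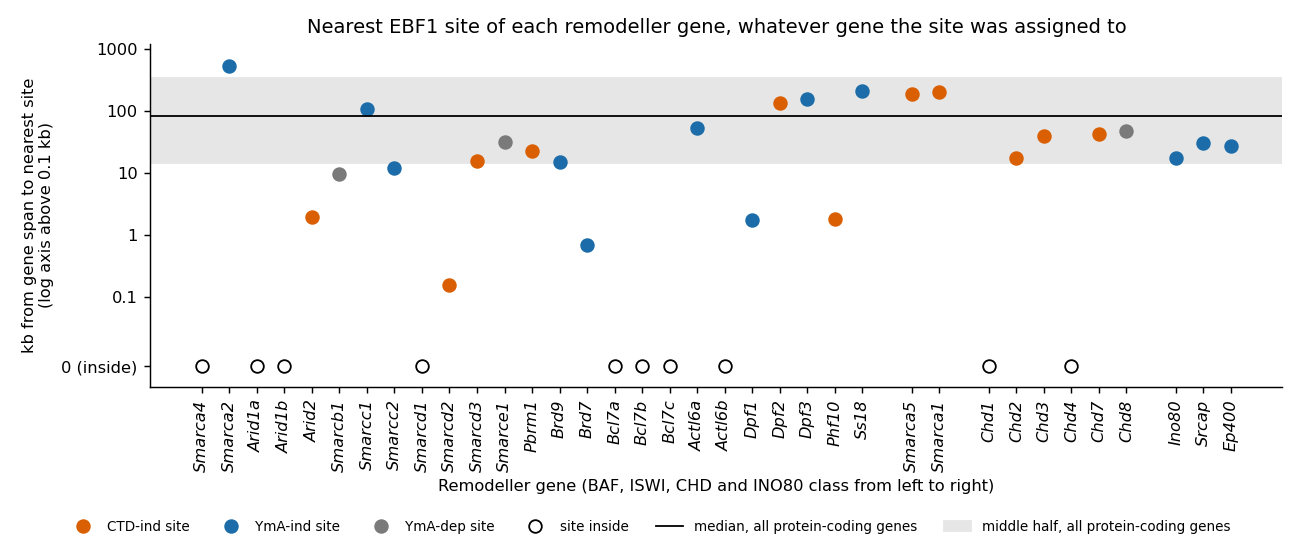
Distance in kb (vertical axis, log scale above 0.1 kb) from the span of each remodeller gene (horizontal axis) to the nearest EBF1 site, with open circles where a site lies inside the gene. The line and band give the median and the quartiles of all protein-coding genes. The median of the remodeller genes was 15.4 kb and that of all protein-coding genes 82.8 kb. These medians are not matched for gene span, whose median was 43.4 kb against 17.4 kb.

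The CHD class had assigned sites at 4 of 6 genes (66.7%, 22.3 to 95.7%), against 19.6% of all protein-coding genes. Of its 8 sites 7 were CTD-ind, against 35.1% of all assigned sites, and 2 of the 8 lay inside a gene. Chd4, the ATPase of NuRD, had a CTD-ind site 0.482 kb after the nearer of its 2 annotated starts (chr6:125096496-125096795). Chd1, a remodeller of transcribed genes, had a CTD-ind site inside, 3.34 kb from its upper-coordinate end (chr17:15769124-15769423). Chd2 had 3 CTD-ind sites, all outside at 17.5, 53 and 53.5 kb, and the first (chr7:73559121-73559420) lay 875.5 bp from the long noncoding RNA gene Chaserr. Chd7, linked to CHARGE syndrome when mutated, had 2 CTD-ind sites at 43.2 and 59.1 kb and a YmA-ind site at 58.3 kb. The counts of Chd2 and Chd7 thus rest on the 100 kb limit and become 0 at 10 kb. Within 10 kb, 2 of the 6 genes (33.3%), Chd1 and Chd4, had a site, against 22.3% of all protein-coding genes. Chd3, another NuRD ATPase, and Chd8 had none, with the nearest at 40 and 48 kb, the latter YmA-dep.

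No gene of the ISWI or INO80 class had an assigned site or a site within 10 kb. With 0 of 2 and 0 of 3 genes, the exact intervals reached 84.2 and 70.8%, so these classes cannot be set apart from the others or from the background. Smarca5 and Smarca1, the ISWI ATPases SNF2H and SNF2L, had their nearest sites at 185 and 202 kb. Ino80, Srcap and Ep400, each the ATPase of a complex of its own, had theirs at 17.3, 30.1 and 26.9 kb, all YmA-ind and each assigned to another gene.

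Of 12 paralog groups among the remodeller genes, 3 had an assigned site at each member (Arid1a with Arid1b, the BCL7 genes, and Chd1 with Chd2), 6 at some members and 3 at none. Within 10 kb only 1 of the 2 genes Chd1 and Chd2 had a site. The same counts over other paralog groups were not made, so these have no background. Over the 23 remodeller genes without an assigned site, the nearest site lay within 10 kb for 5, from 10 to 100 kb for 11 and beyond 100 kb for 7. Since the list gives no depth, genes that lack a listed site cannot be called unbound.

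Other remodeller genes, a list of 65 further subunits and ATPases, had assigned sites at 22 of 65 (33.8%, 22.6 to 46.6%), against 19.6% of all protein-coding genes, and at 23 of 65 by the 10 kb count (35.4%, against 22.3%). These shares were not compared by gene span. Their 34 sites were 12 CTD-ind, 17 YmA-ind and 5 YmA-dep. Over all assigned sites these classes made up 35.1, 53.6 and 11.2%. ISWI partner genes had sites at 6 of 9 (66.7%, 29.9 to 92.5%), although neither ISWI ATPase gene did. Among the partners, Cecr2 had 4, only 1 of them within 10 kb, Bptf 2, and Baz1a, Baz1b and Baz2a 1 each. Of the NuRD subunit genes 4 of 12 had sites, with 2 each at Gatad2a and Mbd2 and 1 each at Hdac1 and Mta3. Subunit genes of INO80, SRCAP and TIP60 had sites at 7 of 25, among them Ino80d with 2 and Brd8, Epc1, Ino80c and Mcrs1 with 1 each. Further BAF genes had sites at 2 of 5, with 3 at Bcl11a and 2 at Bicra. Other SNF2-type ATPase genes had them at 3 of 14, with 3 at Chd9 and 1 each at Chd6 and Ercc6. Bcl11a and Chd9 each had only 1 site within 10 kb. The 5 YmA-dep sites were 1 each at Baz1b, Gatad2a, Epc1, Chd9 and Ercc6.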

How the data were processed

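Of 5 libraries, 1 was analysed here: EBF1 ChIP-seq with wild-type EBF1. The authors deposited positions in bp and a class name for each site, with no score, and per the submitters' processing notes GRCm38 (mm10) was the build, with Bowtie2, SAMtools and deepTools among the tools. Which caller and threshold gave the sites, and what made the classes, was not stated in the descriptions used. Read depth is unknown, so no value here carries a precision beyond counting error.

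Positions were made 1-based. The RefSeq table of GRCm38 gave 49209 genes after 345 on scaffolds were dropped; protein-coding were 21521. Site centres were assigned with Python 3.11.15, pandas 2.3.3 and numpy 2.4.6, within 100 kb, or counted within 10 kb. Intervals are exact (Clopper-Pearson, scipy 1.17.1). On simulated data, 200 of 200 sites planted by known genes were assigned rightly. Those sites lay inside or close to genes chosen to have no near coding neighbour. Overlapping genes, competing neighbours and longer distances were therefore not tried. The remodeller genes and lists were chosen with earlier results of these data known. All 36 genes are named; other remodeller genes are named up to 5 per complex, by number of sites. Alternatives were other distance limits, all genes near a site, all annotated genes, site edges and 1 site per run of neighbours. One gene of the marker check is not reported here.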

Additional observations from a re-analysis of the deposited data

How the results depend on the processing

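Of 384 values under alternatives, 288 were numbers of sites at single genes, of which 277 stayed within their exact Poisson interval, wide at such low counts. Of the other 96, 83 stayed within 1.5 times or within their interval. Remodeller genes with a site numbered 11 to 13 with limits of 10 kb, 20 kb or none, site edges, runs or all annotated genes. The background then was 16.5 to 20.0%. When each site counted for every coding gene within 100 kb, 29 of 36 had one (80.6%, background 53.4%), with 98 sites or 2.72 per gene. BAF genes then numbered 20 of 25, INO80 class genes 3 of 3 and other remodeller genes 44 of 65. With all annotated genes, sites fell to 19, or 0.528 per gene, because noncoding genes took sites. The CHD count of 4 genes became 2 with the 10 kb limit, with all genes within 10 kb and with all annotated genes, since Chd2 and Chd7 went to 0. BAF genes went from 9 to 14 of 25 with all genes within 10 kb, where the background was 22.3%. With T before and A after the core, 0 of 31 remodeller windows matched (interval up to 11.2%), against 0.904% of all windows, a value inside that interval. The YmA-ind share of 46.7% lay below that of all assigned sites, but above it with limits of 10 kb (59.1%) and 20 kb (54.2%, against 52.8%) and with all annotated genes (63.2%). The CTD-ind share ranged from 36.8 to 54.5% and lay above that of all sites in each setting. With all annotated genes the gap was small (36.8%, 16.3 to 61.6%, against 35.5%). The settings re-use sites, so their common direction is not independent support. The YmA-dep share ranged from 0 to 9.18%. That highest value came with every coding gene within 100 kb, where the share over all coding genes was 9.70%. The share of sites near gene ends became 40% with any annotated gene and 43.3% within 5 kb. More gene ends or a wider window can only raise such a share. The same shares over all assigned sites were not computed, so neither value has a background. A stricter threshold and shared peaks could not be run without a score or another list. Depth is unknown, so site strength and missed sites cannot be judged. No paired analysis was possible because 1 library had a file.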
